A study of Mus musculus with 23 samples.

Results

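The genes described here encode the enzymes and regulators of cholesterol and fatty acid synthesis. They were chosen by name from a list of 31 genes, and 29 of them have a row among the 19945 genes of the table. Acat2 and Acaca were not analysed here. By role they are 6 genes of the mevalonate pathway, 11 enzymes from squalene to cholesterol, 5 genes that encode regulators or a sterol carrier (Stard4), and 7 genes of fatty acid synthesis and desaturation. All 29 passed the filter on low values, which asked for a normalized count of at least 10 in at least 5 libraries.

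They were measured by RNA sequencing in 23 libraries of mouse cells labelled ILC2s, group 2 innate lymphoid cells, which are tissue lymphocytes that respond to IL-33. Male donors aged 8 to 10 weeks, on the B6.Cg-Tg(CAG-GFP)Smoc background or wild-type, were given IL-33 into the peritoneum every 2 days for 7 days. Lineage-negative (CD11b, Gr1, CD3ε, CD45R/B220, Ter119) CD25+ cells of bone marrow and spleen were enriched on magnetic beads. They were grown for 14 days with the cytokines IL-33, IL-2, IL-15 and IL-7, a history every group shared up to the end of culture. The cells later recovered from blood and brain then spent time in a host, out of this medium. That change cannot be told apart from transfer itself in comparisons with culture. Cells sorted as CD45+Lin-ST2+KLRG1+CD127+ were injected into a vein 6 h after middle cerebral artery occlusion (MCAO), a stroke model. The groups are culture (5 libraries, taken from the culture medium without transfer), blood on day 1 (6), blood on day 5 (6) and brain on day 5 (6). Transferred cells without MCAO are not among the groups analysed here. Whether the culture libraries passed the final sort, how cells were sorted on recovery and whether replicates are separate animals are not stated in the sources used here, so p-values measure the spread between these libraries, which may be technical. The labels give 2 batches, 12 libraries in batch 1 (replicates 1 to 3 of each group) and 11 in batch 2, and each batch holds every group.

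Libraries of batch 1 held 11.6 M to 16.9 M counted reads each (M, 1e6), and those of batch 2 held 27.8 M to 58.1 M. The labelled cell type was checked against 10 ILC2 identity genes, which summed to 0.456% ± 0.0718 (SD, n = 5) of the normalized counts in culture, 0.228% ± 0.0922 in blood on day 1, 0.325% ± 0.0388 in blood on day 5 and 0.0345% ± 0.00791 in brain (n = 6 each). Singly they went both ways. Of the 9 tested, 4 were higher and 3 lower than in culture on each blood day (limma, adjusted p under 0.05). The shares of all genes were 18.1% and 14.0% on day 1, and 19.6% and 11.4% on day 5. In brain 3 were higher and 6 lower (37.5% and 11.7% of all genes). In brain libraries 6 choroid plexus markers summed to 1.35 to 7.83% and 8 oligodendrocyte markers to 1.03 to 1.53%, and 7 microglial and 7 astrocyte markers to 0.489 to 1.25% and 0.0858 to 0.238%. Every one of these markers had reads in every brain library. In culture the highest sums of the same lists were 0.00162%, 0.0443%, 0.0127% and 0.0418%. Blood libraries held platelet markers at 0.156 to 4.90%, erythroid markers at 0.267 to 8.40% and neutrophil markers at 0.0617 to 2.93%, where culture means were 0.0113%, 0.0889% and 0.00682%. Erythroid markers reached 0.409% in culture replicate 4, inside the blood range. NK cell markers averaged 0.261% and 0.308% on the blood days and 0.0214% in culture, and B cell markers 0.205%, 0.352% and 0.00337%, of the same order as the ILC2 genes in blood. The part of these markers in the differences between blood and culture was not tested. In these bulk samples fewer cells of a type and less RNA per cell cannot be told apart. Culture replicate 5, blood day 1 replicates 2 and 6 and brain replicate 2 had been picked out in an earlier analysis of these data and are left out together in an alternative below. They are not the only distant ones by chi-square per degree of freedom, a measure that grows with read depth. Culture replicate 4 (36.7 M reads) differed from replicates 1 to 3 by 875 to 901, near the 967 to 1026 of replicate 5 (36.8 M). Brain replicate 6 (58.1 M) differed from its group by 526 to 786, and brain replicate 2 (16.9 M) by 423 to 629. With such unlike depths these brain ranges cannot be ranked. Culture replicates 1 to 3 (chi-square per degree of freedom 4.19 to 12.5 between pairs) and brain replicates 1 and 3 (10.1) were closer to each other than any other pair of a group (45.0 or more).

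Cholesterol is built from acetyl-CoA, which passes through mevalonate and isoprenoid diphosphates to squalene and is then closed into sterol rings. The same acetyl-CoA, made from citrate by ATP citrate lyase, feeds fatty acid synthase, and desaturases and elongases shape its product. Both routes answer to the SREBP transcription factors: when membrane sterol is low, the escort protein SCAP carries the SREBP precursors to the Golgi for cleavage, and INSIG proteins hold SCAP back when sterol is plentiful. Dividing lymphocytes are known to raise both routes, since they build new membrane.

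SREBP binds sterol regulatory elements in promoters, often beside a CCAAT box, the site of the factor NF-Y. RefSeq promoters (GRCm38.p6, 250 bases before to 50 after the start) were found for 22 of the 29 genes. The letters CCAAT, searched on both strands, occurred in at least 1 promoter of 19 of these 22 genes (86.4%) and of 41.1% of all 27025 genes with a promoter. The sterol element TCACNCCAC occurred in 1 (4.55%, against 1.44% of all) and the E-box form ATCACGTGA in 0 of 22, against 0.374% of all. These motifs do not overlap in the promoters printed. The 250 bases upstream of 3 genes are shown because the genes behaved differently: Hmgcs1 and Mvk were lower in blood than in culture on day 1, and Elovl6 was higher. Capitals mark the motif matches, and ATTGG is CCAAT read on the other strand.
Hmgcs1, chr13:119690101-119690350, plus strand: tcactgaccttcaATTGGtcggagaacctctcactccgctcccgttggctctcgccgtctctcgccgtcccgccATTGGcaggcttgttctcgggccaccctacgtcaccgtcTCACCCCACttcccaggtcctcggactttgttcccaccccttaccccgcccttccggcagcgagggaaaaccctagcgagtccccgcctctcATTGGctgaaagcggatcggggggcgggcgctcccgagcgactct
Mvk, chr5:114444019-114444268, plus strand: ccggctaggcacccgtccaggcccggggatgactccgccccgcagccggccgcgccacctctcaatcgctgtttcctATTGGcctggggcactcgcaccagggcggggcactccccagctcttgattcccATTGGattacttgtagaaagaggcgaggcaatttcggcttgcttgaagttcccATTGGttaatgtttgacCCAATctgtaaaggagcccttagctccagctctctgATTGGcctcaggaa
Elovl6, chr3:129532136-129532385, plus strand: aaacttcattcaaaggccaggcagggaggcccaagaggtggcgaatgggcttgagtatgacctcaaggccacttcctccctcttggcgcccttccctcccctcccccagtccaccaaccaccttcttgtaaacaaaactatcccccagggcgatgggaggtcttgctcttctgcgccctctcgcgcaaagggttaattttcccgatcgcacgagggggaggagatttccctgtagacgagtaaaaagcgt
The Hmgcs1 stretch holds 3 CCAAT matches and the sterol element, TCACCCCAC, at position -137 from the start. The Mvk stretch holds 5 CCAAT matches, from position -173 to position -14. The Elovl6 stretch holds none of the searched motifs, which says only that those letters are not in this window. CCAAT occurred in the upstream 250 bases of 18 of the 22 genes, among them Ebp, Dhcr7 and Nsdhl (2 matches each), not called in blood. The genes without it were Elovl6, Scap, which fell on day 1, and Acly and Fads2, not called in blood. Whether the motifs go with the direction of change was not tested.

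After transfer most of these genes were lower in blood than in culture. On day 1, 19 of the 29 fell and 1 rose at an adjusted p under 0.05 (limma, Benjamini-Hochberg over all 15268 genes tested), where 14.0% of all genes tested fell and 18.1% rose. The genes that fell were Hmgcs1, Mvk, Mvd, Idi1, Fdps, Fdft1, Sqle, Lss, Cyp51, Msmo1, Hsd17b7, Sc5d, Srebf1, Srebf2, Scap, Insig1, Stard4, Fasn and Scd2, and Elovl6 rose. The median log2 difference of the 29 was -1.67, against 0.04 over all genes tested. For 10 of the 29 every blood library was below every culture library (7.39% of all genes), and for 1 every blood library was above (9.70%). By role, 5 of 6 mevalonate genes, 7 of 11 sterol enzymes, all 5 regulator and carrier genes and 2 of 7 fatty acid genes fell. Fewer fell when the closest libraries were averaged (10), and 18 fell in batch 1 alone and 7 in batch 2 alone. Over all 15268 genes tested 1207, 2215 and 886 fell in those fits, against 2135 in the main fit.

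On day 5 in blood 11 of the 29 were lower than culture by the same test and 1 was higher, where 11.4% of all genes fell and 19.6% rose. Those that fell were Hmgcs1, Mvd, Idi1, Fdft1, Sqle, Msmo1, Hsd17b7, Srebf1, Srebf2, Stard4 and Scd2, and Elovl6 again rose. The median was -1.24, against 0.14 over all genes. Without overlap, 9 were below culture (9.54% of all genes) and 1 above (15.2%). Within the batches 12 fell in batch 1 and 5 in batch 2, and 19 fell without the 4 libraries named above. Over all 15268 genes tested 1636, 1099 and 2802 fell in those fits, against 1748 in the main fit. DESeq2 called 18 lower, and 2343 of the 14716 genes it tested. Both blood comparisons use the same culture libraries. Between the blood days 0 of the 29 differed (limma, smallest adjusted p = 0.618), where 0.0982% of all genes were higher on day 5 and 0.00655% lower. At an unadjusted p under 0.05 there were 2 higher and 0 lower, and edgeR and DESeq2 also called 0, each with 2 and 0 at the unadjusted level. For 0 of the 29 the blood days did not overlap, against 0.603% of all genes higher and 0.517% lower.

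In brain the genes split. Against blood on day 5, 10 of the 29 were higher and 0 lower, where 33.6% of all genes tested were higher and 14.3% lower, so the members' share was near that of all genes. The 10 were Hmgcs1, Mvk, Fdft1, Sqle, Msmo1, Hsd17b7, Srebf1, Scd2, Fads1 and Fads2. At an unadjusted p under 0.05, 1 gene was lower, and edgeR called 2 lower and DESeq2 0. For 10 genes every brain library was above every day 5 blood library (24.9% of all genes), a set that holds Pmvk in place of Srebf1, and for 0 every one was below (10.5%). Against culture, 4 were higher (Nsdhl, Elovl6, Fads1, Fads2) and 6 lower (Hmgcs1, Mvd, Idi1, Srebf2, Stard4, Acly), where 37.5% of all genes were higher and 11.7% lower. Without overlap, 3 were above culture (28.4% of all genes) and 2 below (7.27%). The members' medians were 1.19 against blood on day 5 and -0.17 against culture, and those of all genes 0.47 and 0.67.

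The brain counts depend on how the libraries were scaled, since most genes measured lay above their level elsewhere. With each library centred on the median of its tested genes, the median of all genes became -0.44 against blood on day 5 and -0.46 against culture. The members then were 4 higher (Sqle, Scd2, Fads1, Fads2) and 6 lower (Mvd, Ebp, Srebf2, Stard4, Acly, Scd1) than in blood, and 2 higher and 16 lower than in culture. With TMM scaling (all-gene medians 0.07 and 0.31) they were 9 higher and 4 lower than in blood, and 3 higher and 8 lower than in culture. With equal library totals (0.08 and 0.62) they were 9 and 3, and 3 and 6. Over all genes tested TMM scaling gave 4426 higher and 3159 lower than in blood, and 5048 and 2626 against culture. Equal totals gave 4383 and 2978, and 5518 and 1738. Without the 4 libraries named above 16 members were higher than in blood, and 6376 of all genes. The non-ILC2 marker levels given above differ between brain and the other groups in the same libraries, and their part in the brain results was not tested.

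**Figure D1:**
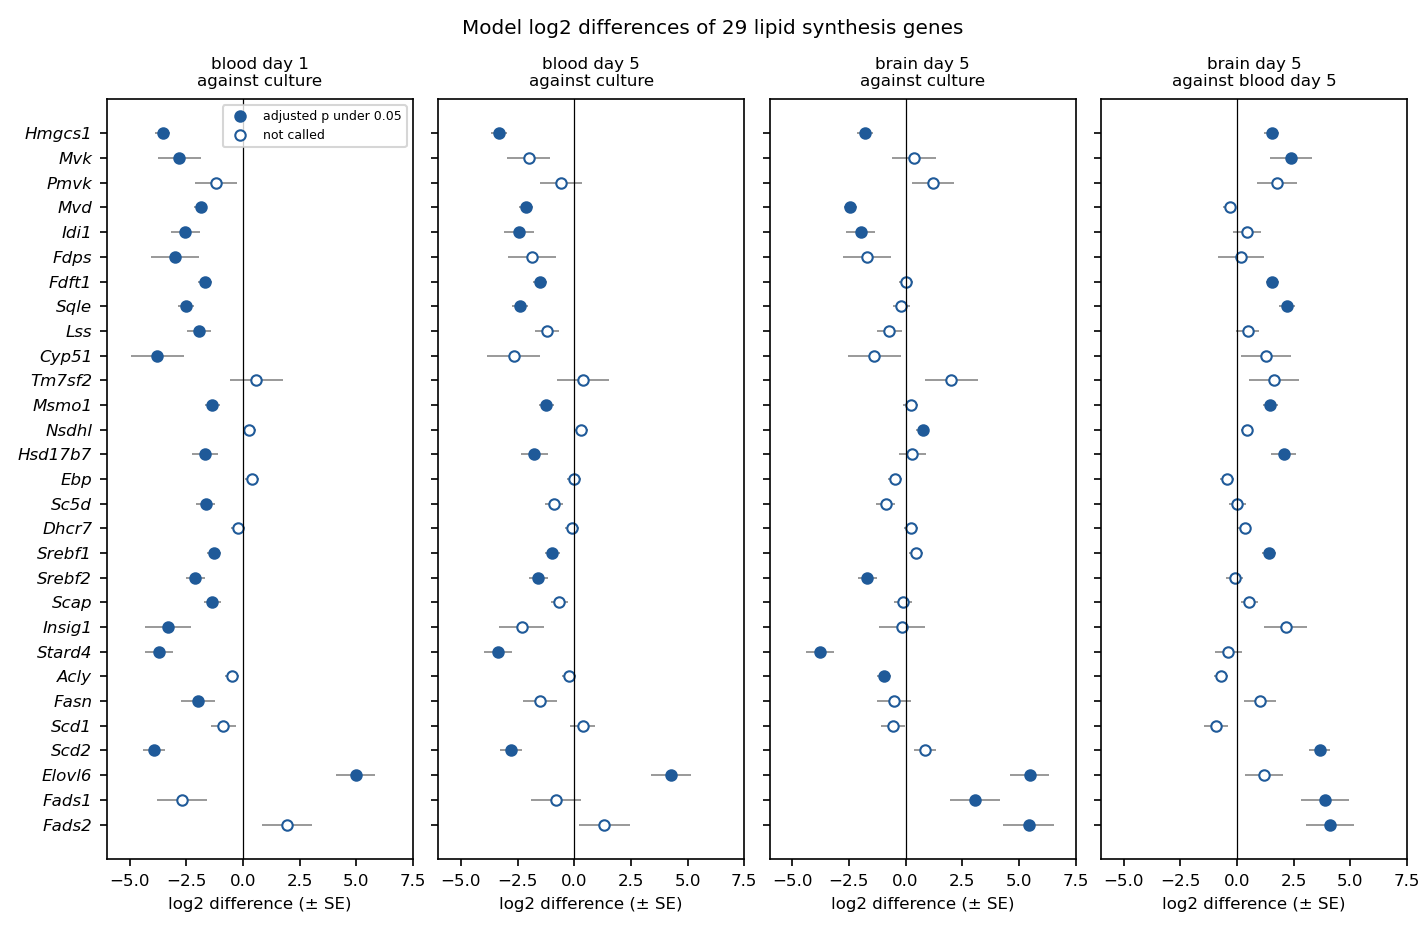
Log2 difference from the model for each of the 29 genes (rows, grouped by role from the mevalonate pathway at the top to fatty acid genes at the bottom) in 4 comparisons, with standard error bars. Filled points passed an adjusted p of 0.05. In both blood panels most filled points lie left of 0 except Elovl6, and in the brain against blood panel all 10 filled points lie right of 0.

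Hmgcs1 (ENSMUSG00000093930, chr13:119690379-119708260, mm10) encodes the synthase that makes HMG-CoA and stands at the head of the mevalonate route. Its normalized count, the read count divided by one size factor per library, was 7181, 7357, 6947, 2691 and 7223 in the 5 culture libraries. It was 214 to 858 in blood on day 1 (median 538), 465 to 835 on day 5 (604) and 1106 to 2756 in brain (1817). No blood library reached the lowest culture library, and brain lay between, above every day 5 blood library and with replicate 5 just above the lowest of culture. On the log2 scale of the normalized count + 1, the difference from culture was -3.54 ± 0.34 (SE) on day 1 (11.6-fold lower, adjusted p = 3.66e-08, limma) and -3.31 ± 0.34 on day 5 (9.90-fold, adjusted p = 8.92e-08). In brain it was -1.78 ± 0.34 (adjusted p = 0.000122), and brain was 1.52 ± 0.33 above blood on day 5 (adjusted p = 0.000423). The last lost its call when libraries were centred on the median gene (0.62, adjusted p = 0.127) and in batch 2 alone (1.28, 0.0672). Across the alternatives the fall on day 1 ranged from -4.18 to -2.76 and passed in all 28.

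Mvd (chr8:122433601-122443422), whose product makes isopentenyl diphosphate, had 1856, 2051, 2034, 5842 and 3072 in culture. In blood it was 521 to 996 on day 1 (median 756) and 347 to 1019 on day 5 (633), and in brain 425 to 665 (469). All 18 recovered libraries lay below all 5 culture libraries. The differences from culture were -1.86 ± 0.30 on day 1 (adjusted p = 4.15e-05), -2.12 ± 0.30 on day 5 (7.73e-06) and -2.43 ± 0.30 in brain (3.55e-07, limma), and all passed in every alternative run. Mvd thus stayed low in brain, where Hmgcs1 was higher than in blood. Within batches the day 5 fall was -1.32 in batch 1 and -3.15 in batch 2, and this difference between batches passed its test (-1.83 ± 0.48, adjusted p = 0.0257).

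Fdps, the farnesyl diphosphate synthase that sits where sterols and protein prenylation part, had 895, 974, 855, 1779 and 216 in culture. It had 0 to 389 in blood on day 1 (median 245), 113 to 364 on day 5 (219) and 139.7 to 524 in brain (241), so the groups overlapped through culture replicate 5. Its day 1 difference was -2.98 ± 1.06 (adjusted p = 0.0349, limma), lost in 9 of 28 alternatives. Day 1 replicate 2 was at 0, so the size of this fall depends on the pseudocount of 1. Leaving out culture replicate 1, 2, 3 or 4 gave adjusted p = 0.0689, 0.0732, 0.0684 and 0.0753. It did not pass on day 5 (-1.88 ± 1.06, adjusted p = 0.195) or in brain (-1.70 ± 1.06, 0.196). Among the rest, Mvk, the mevalonate kinase, fell on day 1 (-2.80 ± 0.96, adjusted p = 0.0291) and was 2.38 ± 0.91 higher in brain than in day 5 blood (0.0349), calls lost in 8 of 28 and 12 of 29 alternatives. Mvk was also at 0 in day 1 replicate 2. The isopentenyl isomerase gene Idi1 fell by 2.54, 2.44 and 1.99 in the comparisons of day 1, day 5 and brain with culture (adjusted p = 0.00411, 0.00523 and 0.0133, the last lost without culture replicate 5 and each lost in batch 2 alone). Pmvk, the phosphomevalonate kinase, passed in no comparison. As a share of all normalized counts the 6 genes took 0.0480% ± 0.00250 (SD, n = 5) in culture, 0.0102% ± 0.00446 and 0.0104% ± 0.00163 in the blood days and 0.0174% ± 0.00384 in brain (n = 6 each), and culture did not overlap any other group.

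Sqle (chr15:59315077-59331192) encodes squalene epoxidase, a slow step of the sterol branch. Its normalized count in culture was 2410.1, 2351, 2367, 1152 and 2266. It was 161 to 502 in blood on day 1 (median 408), 155 to 607 on day 5 (482) and 1308 to 3190.1 in brain (1449). Blood did not overlap culture or brain, and brain and culture overlapped. Sqle fell by 2.51 ± 0.37 (SE) on the log2 scale on day 1 (adjusted p = 1.43e-05, limma; 0.0718 in batch 2 alone) and by 2.39 ± 0.37 on day 5 (2.39e-05). It was 2.20 ± 0.35 higher in brain than in day 5 blood (4.60-fold, adjusted p = 1.51e-05), a rise that passed in all 29 alternatives with log2 1.29 to 2.34. Against culture the brain value did not pass (-0.19 ± 0.37, adjusted p = 0.704), but it was -1.33 with adjusted p = 0.00813 when libraries were centred on the median gene.

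Cyp51 (chr5:4081145-4104746), the lanosterol demethylase, had 3179, 3052, 3156, 871 and 4439 in culture and 0 to 968 in blood on day 1 (median 585). It had 169 to 899.6 in blood on day 5 (539) and 701 to 1846 in brain (1021). Culture replicate 4 overlapped the other groups, and the remaining culture libraries were above all of them. The day 1 fall was -3.78 ± 1.17 (adjusted p = 0.0162, limma), lost in 3 of 28 alternatives, among them batch 2 alone (-1.90, adjusted p = 0.196). Its size depends on the pseudocount of 1, since day 1 replicate 2 was at 0 and the other day 1 libraries at 251 to 968. Across the alternatives it ranged from -5.46 to -1.61. The day 5 and brain differences from culture did not pass (-2.66 ± 1.17, adjusted p = 0.0911; -1.38 ± 1.17, 0.356). On day 5 edgeR and DESeq2 called it lower (adjusted p = 0.0117 and 0.00126).

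Fdft1, Msmo1 and Hsd17b7 of this branch were also lower on both blood days than in culture. Fdft1, the squalene synthase that commits farnesyl diphosphate to sterols, was 1181 to 2882 in culture (median 1506), 430.4 to 717 in day 1 blood, 373 to 875 in day 5 blood and 1095 to 2855 in brain. Msmo1, a sterol oxidase, and Hsd17b7, a sterol reductase, were, like Fdft1, higher in brain than in day 5 blood. Those 3 brain differences were 1.55, 1.47 and 2.06 (adjusted p = 0.000109, 0.000448 and 0.00375, limma), and each lost its call under centring on the median gene. The falls of Hsd17b7 (-1.66 and -1.77, adjusted p = 0.0337 and 0.0246) were lost in 10 and 8 of 28 alternatives, among them without culture replicate 1, 2 or 3 on each day. Lss, which closes squalene epoxide into lanosterol, and Sc5d, a late desaturase, fell on day 1 only by the test (-1.93 and -1.64, adjusted p = 0.00784 and 0.00352), and whether their falls differed between the blood days was not shown (adjusted p = 0.706 and 0.67 for the difference). The enzymes Ebp, Dhcr7, Tm7sf2 and Nsdhl passed in no comparison of blood with culture. Nsdhl was 0.76 ± 0.29 higher in brain than in culture (adjusted p = 0.0305), a call lost in 13 of 28 alternatives. The 11 genes took 0.0685% ± 0.00211 of the normalized counts in culture, 0.0387% ± 0.0132 and 0.0414% ± 0.00251 in blood and 0.0539% ± 0.0123 in brain.

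**Figure D2:**
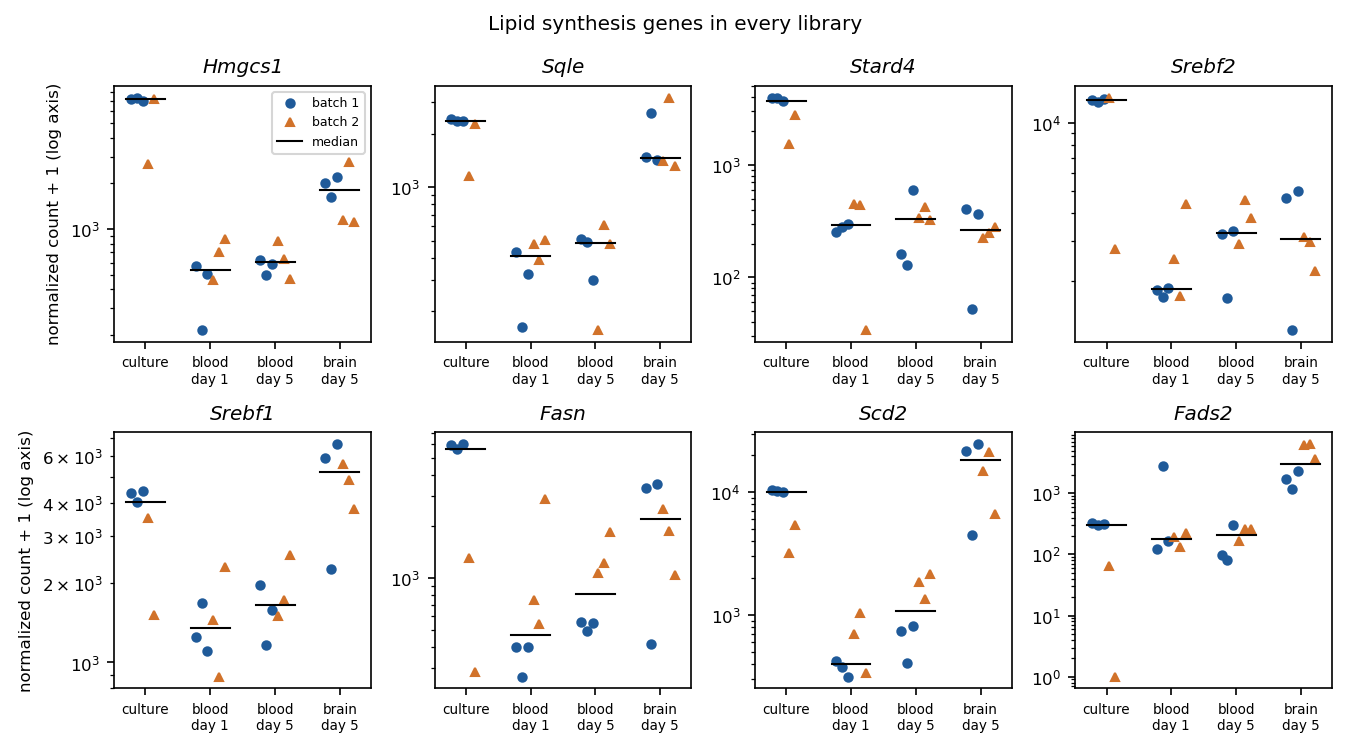
Normalized count + 1 (log axis) of 8 genes in every library of the 4 groups, with circles for batch 1, triangles for batch 2 and a bar at the median. Hmgcs1 and Sqle are low in both blood groups and intermediate or high in brain, Stard4 is low in all recovered groups, and Fasn and Fads2 are lower in the batch 2 than in the batch 1 culture libraries.

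The regulators and the carrier Stard4 were all called lower than culture on day 1 with both batches in the fit. In batch 2 alone only Stard4 of them passed. Srebf2 (chr15:82147181-82205379), whose product SREBP-2 mainly drives sterol genes, had 12642, 12395, 12786, 12939 and 2775 in culture. It had 1706 to 4400.0 in day 1 blood (median 1849), 1688 to 4559 in day 5 blood (3278) and 1215 to 4989 in brain (3057). All 18 recovered libraries were below 4 of the culture libraries, and culture replicate 5 lay among them. The differences from culture were -2.10 ± 0.41 on day 1 (adjusted p = 0.000406, limma), -1.59 ± 0.41 on day 5 (0.00469) and -1.70 ± 0.41 in brain (0.00144). In batch 2 alone none of these passed (-1.17, -0.70 and -1.12, adjusted p = 0.217, 0.463 and 0.160).

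Srebf1 (chr11:60199089-60222581), which encodes SREBP-1, the form tied mainly to fatty acid genes, had 4349, 4031, 4424, 3484 and 1504 in culture. It had 883 to 2289 in day 1 blood (median 1346), 1159 to 2540.1 in day 5 blood (1639.8) and 2239 to 6639.7 in brain (5223). Culture replicate 5 lay within both blood groups, and only brain replicate 2 lay within the range of day 5 blood. Srebf1 fell by 1.27 ± 0.32 on day 1 (adjusted p = 0.00413, limma) and by 0.97 ± 0.32 on day 5 (0.0247). The day 1 call was lost in 2 of 28 alternatives, batch 2 alone and the closest libraries averaged (adjusted p up to 0.384, limma). The day 5 call was lost in 7 of 28 alternatives, with adjusted p = 0.0643, 0.0594 and 0.0673 without culture replicate 1, 2 or 3 and 0.0657 without day 5 blood replicate 2. Srebf1 was 1.43 ± 0.31 higher in brain than in day 5 blood (adjusted p = 0.000443), while Srebf2 did not differ by the test (-0.11 ± 0.39, 0.857). With centring on the median gene the Srebf1 difference was 0.52 (adjusted p = 0.134) and that of Srebf2 -1.02 (0.0182).

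Scap, the SREBP escort, had 2208, 2148, 2192, 1419.6 and 1181 in culture, 419 to 1903 in day 1 blood (median 670.1), 597 to 1608 in day 5 blood (1282) and 743 to 2815 in brain (1776). Only day 1 replicate 6 of the day 1 libraries reached the culture range. It fell by 1.34 ± 0.39 on day 1 (adjusted p = 0.0114, limma) and did not pass on day 5 (-0.65 ± 0.39, 0.230). Its day 1 call was lost in 2 of 28 alternatives, batch 2 alone and the closest libraries averaged (adjusted p up to 0.362, limma). Insig1, which retains SCAP in the endoplasmic reticulum and is itself an SREBP target, had 807, 866, 936, 270.4 and 242 in culture and 0 to 177 in day 1 blood (median 105). It had 23.5 to 419 in day 5 blood (111) and 223 to 751 in brain (574). Day 1 blood did not overlap culture, and the difference was -3.31 ± 1.01 (adjusted p = 0.0149). Within batches it was -5.42 in batch 1 and -0.78 in batch 2 (adjusted p = 0.668 there). Day 1 replicate 2, of batch 1, was at 0, so the batch 1 value depends on the pseudocount of 1. In brain Insig1 was 2.15 ± 0.96 above day 5 blood without passing (adjusted p = 0.0698), and it passed without day 5 blood replicate 5 (2.53, 0.0433).

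Stard4 (chr18:33199355-33213862), a soluble carrier that moves sterol between membranes, had 3966, 3951, 3697, 1535 and 2799.7 in culture. It had 32.9 to 445 in day 1 blood (median 289), 127 to 594 in day 5 blood (330.2) and 51.1 to 402 in brain (262). Every recovered library was below every culture library. The differences were -3.71 ± 0.62 on day 1 (13.1-fold lower, adjusted p = 5.86e-05, limma), -3.38 ± 0.62 on day 5 (0.000158; 0.0875 in batch 2 alone) and -3.76 ± 0.62 in brain (1.80e-05). Stard4 and Mvd were the 2 members whose fall from culture showed no overlap in brain. The 5 regulator and carrier genes took 0.0832% ± 0.0307 of the normalized counts in culture, 0.0231% ± 0.0108 and 0.0358% ± 0.0110 in blood and 0.0446% ± 0.0215 in brain.

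The fatty acid genes moved less uniformly. Acly (chr11:100476353-100528000), which makes cytosolic acetyl-CoA from citrate, had 8584, 8417, 8755, 2894 and 4129 in culture. It had 3346 to 7275 in day 1 blood (median 4133), 3664 to 5931 in day 5 blood (5567) and 2161 to 5636 in brain (3078), and all groups overlapped. It did not pass in blood (-0.46 ± 0.31, adjusted p = 0.272 on day 1, and -0.22 ± 0.31, 0.652 on day 5) and was -0.93 ± 0.31 in brain (0.0150, limma). The brain call was lost in batch 2 alone (-0.12, adjusted p = 0.875). Against day 5 blood the brain value was -0.71 ± 0.29 (adjusted p = 0.0511), and it passed without day 5 blood replicate 2 (0.0333) or brain replicate 5 (0.0127).

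Fasn (chr11:120805846-120824547), the fatty acid synthase, had 5956, 5658, 6013, 1305 and 285 in culture. It had 266 to 2872 in day 1 blood (median 468), 490.0 to 1851 in day 5 blood (812) and 414 to 3503 in brain (2212). The 3 batch 1 culture libraries were above every other library and the 2 batch 2 ones lay among the recovered libraries. The fall on day 1 was -1.98 ± 0.75 (adjusted p = 0.0470, limma), but it was -4.08 in batch 1 and 0.78 in batch 2 (adjusted p = 0.563 there), a difference between batches that passed its own test (4.86 ± 1.06, adjusted p = 0.00906). The call was lost in 14 of 28 alternatives, with adjusted p from 0.0584 to 0.130 on leaving out any 1 of culture replicates 1 to 3 or day 1 replicates 1 to 5. Fasn did not pass on day 5 (-1.50 ± 0.75, 0.141, but 0.00687 without culture replicate 5) or in brain (-0.49 ± 0.75), where batch 1 alone gave -1.80 (adjusted p = 0.0464) and batch 2 alone 1.48 (0.161).

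The stearoyl-CoA desaturases, which put the first double bond into saturated fatty acids, differed from each other. How the counting treated reads that related genes such as these could share is not given in the sources used here. Scd2 (chr19:44293674-44306864) had 10364, 10177, 10047, 3166 and 5413 in culture, 313 to 1036 in day 1 blood (median 399), 408 to 2151 in day 5 blood (1079) and 4502 to 24608 in brain (18144). Neither blood group overlapped culture or brain, and brain and culture overlapped. Scd2 fell by 3.92 ± 0.49 on day 1 (15.1-fold lower, adjusted p = 1.60e-06, limma) and by 2.79 ± 0.49 on day 5 (0.000106; 0.156 in batch 2 alone). In brain it was 3.65 ± 0.47 above day 5 blood (12.5-fold, adjusted p = 7.18e-07), a rise called in all 29 alternatives with log2 2.74 to 4.42, and it did not pass against culture (0.85 ± 0.49, 0.163). Scd1 (chr19:44394455-44407879) had 2000.3, 1847, 1789, 421 and 801 in culture, 317 to 1428 in day 1 blood (median 664), 835 to 2842 in day 5 blood (1647) and 355 to 1992 in brain (806). All its groups overlapped and none of its 5 comparisons passed, with adjusted p of 0.240, 0.667, 0.429, 0.618 and 0.149 for day 1, day 5 and brain against culture, day 5 against day 1, and brain against day 5 blood. In batch 1 alone Scd1 was lower on day 1 than in culture (-2.11, adjusted p = 0.0168). It was lower in brain than in day 5 blood in batch 2 alone (-1.98, adjusted p = 0.00623) and with centring on the median gene (-1.84, 0.00115).

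Elovl6 (chr3:129532355-129638495), which lengthens palmitate to stearate, was the only member to rise in blood. It had 50.5, 54.8, 46.2, 0 and 0 in culture, 159.7 to 783 in day 1 blood (median 295), 128 to 284 in day 5 blood (199) and 208 to 639 in brain (495). Every recovered library was above every culture library. The differences from culture were 4.97 ± 0.88, 4.28 ± 0.88 and 5.47 ± 0.88 (adjusted p = 0.000122, 0.000547 and 1.36e-05, limma). Since both batch 2 culture libraries were at 0, the pseudocount of 1 set their folds: the day 1 difference was 2.50 in batch 1 and 8.38 in batch 2, and on day 5 the batch 1 value did not pass alone (1.60, adjusted p = 0.114).

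Fads1 (chr19:10182888-10196877) and Fads2 (chr19:10062765-10101746), neighbouring genes of the delta-5 and delta-6 desaturases of polyunsaturated fatty acids, were highest in brain. Fads1 had 534, 475, 507, 188 and 484 in culture, 0 to 529 in day 1 blood (median 212), 114 to 367 in day 5 blood (258) and 1958 to 6266 in brain (3838). Fads2 had 327, 298, 309, 63.7 and 0 in culture, 120.4 to 2777 in day 1 blood (179), 79.6 to 297 in day 5 blood (210.3) and 1166 to 6362 in brain (2963). No brain library overlapped culture or day 5 blood for either gene, and among the blood and culture libraries Fads2 was high in day 1 replicate 2, with the other 5 of that group at 120.4 to 225. Against day 5 blood Fads1 was 3.88 ± 1.05 higher (14.7-fold, adjusted p = 0.00366, limma; 0.0683 in batch 1 alone) and Fads2 4.10 ± 1.06 (17.1-fold, 0.00246). Against culture they were 3.07 ± 1.10 (adjusted p = 0.0242) and 5.43 ± 1.11 (0.000248) higher. For Fads2 this was 2.41 in batch 1 alone, where the call was lost (adjusted p = 0.0755), and 9.35 in batch 2, where culture replicate 5 was at 0 and the pseudocount of 1 set the fold. The Fads1 call against culture was lost in 5 of 28 alternatives, among them without culture replicate 4 (2.70, adjusted p = 0.0686) and with centring (1.94, 0.129). The 7 fatty acid genes took 0.0850% ± 0.0444 of the normalized counts in culture, 0.0357% ± 0.0132 and 0.0525% ± 0.0189 in blood and 0.126% ± 0.0646 in brain.

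**Figure D3:**
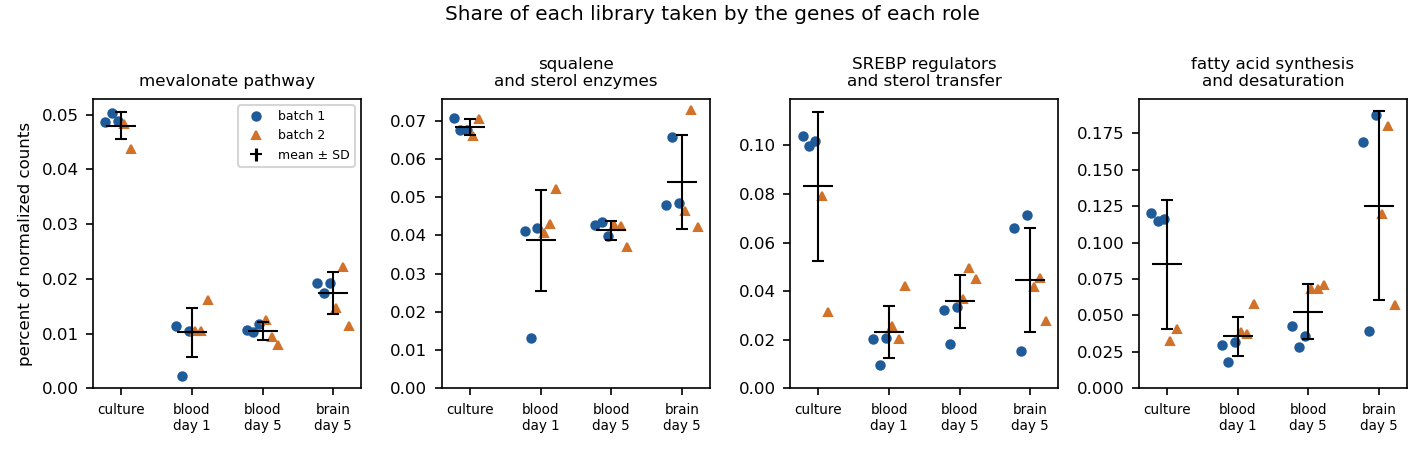
Percent of each library's normalized counts taken by the genes of each role (linear axes from 0), with points for libraries, circles for batch 1, triangles for batch 2, and mean ± SD. Mevalonate genes in culture (0.0437 to 0.0503%) lie above every other group, and the fatty acid genes spread widely in culture and in brain.

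The order of the genes by level, compared per transcript length as TPM computed from the recovered reads, also changed. In culture the highest means were Mvd at 141 TPM (SD 91.3), Srebf2 at 130.2 (56.1), Scd2 at 122 (50.3) and Hmgcs1 at 116 (33.9), whose spreads overlap (n = 5). In day 1 blood Ebp led at 170.3 TPM (SD 93.5) and Acly followed at 102 (44.9, n = 6). In day 5 blood Acly and Ebp were both at 142 TPM (SD 40.4 and 25.0). In brain Scd2 led at 389.5 TPM (SD 263), ahead of Fads2 at 133 (85.5), Srebf1 at 112 (55.7) and Fads1 at 103 (54.5). Idi1 was the lowest of the 29 in each recovered group at 2.57, 2.77 and 3.98 TPM, and Elovl6 the lowest in culture at 0.400 TPM.

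The roles also differed in how the batches of culture compared. All 3 batch 1 culture libraries were above both batch 2 ones for 6 of 7 fatty acid genes, 4 of 5 regulator and carrier genes, 2 of 11 sterol enzymes and 0 of 6 mevalonate genes, together 12 of the 29, where 25.6% of all genes tested did so. Mvd was the 1 member below without overlap, against 18.5% of all genes. Fasn averaged 5876 in the batch 1 culture libraries and 795 in batch 2, Acly 8585 and 3511, and Insig1 869.5 and 256, while the 6 mevalonate genes summed to 0.0493% and 0.0460% of the normalized counts. Cell cycle genes took 0.310% of the normalized counts in the batch 1 culture libraries and 0.0527% in batch 2, and their part in the difference was not tested. In batch 1 they took less in recovered cells than in culture (0.0662% and 0.0934% on the blood days, 0.0544% in brain). In batch 2 they took more (0.188%, 0.166% and 0.0642%). For 3 members the day 1 difference from culture differed between batches by the test (Fasn, Scd1 and Elovl6; 9.63% of all genes), for 7 on day 5 (Acly, Fasn, Scd1, Scd2, Fads2, Elovl6 and Mvd; 8.42%) and for 2 in brain (Fads2 and Elovl6; 3.41%). No sterol enzyme, regulator or carrier gene was among them, which does not show that the batches agreed for these genes. Some of their differences between batches on day 1 were large with wide errors. Insig1 had 4.63 ± 1.86 (SE, adjusted p = 0.119, limma) and Cyp51 3.55 ± 2.32 (0.353). In batch 2 Scd1 was higher in day 5 blood than in culture (2.05, adjusted p = 0.0182), and in batch 1 it was -0.94.

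**Figure D4:**
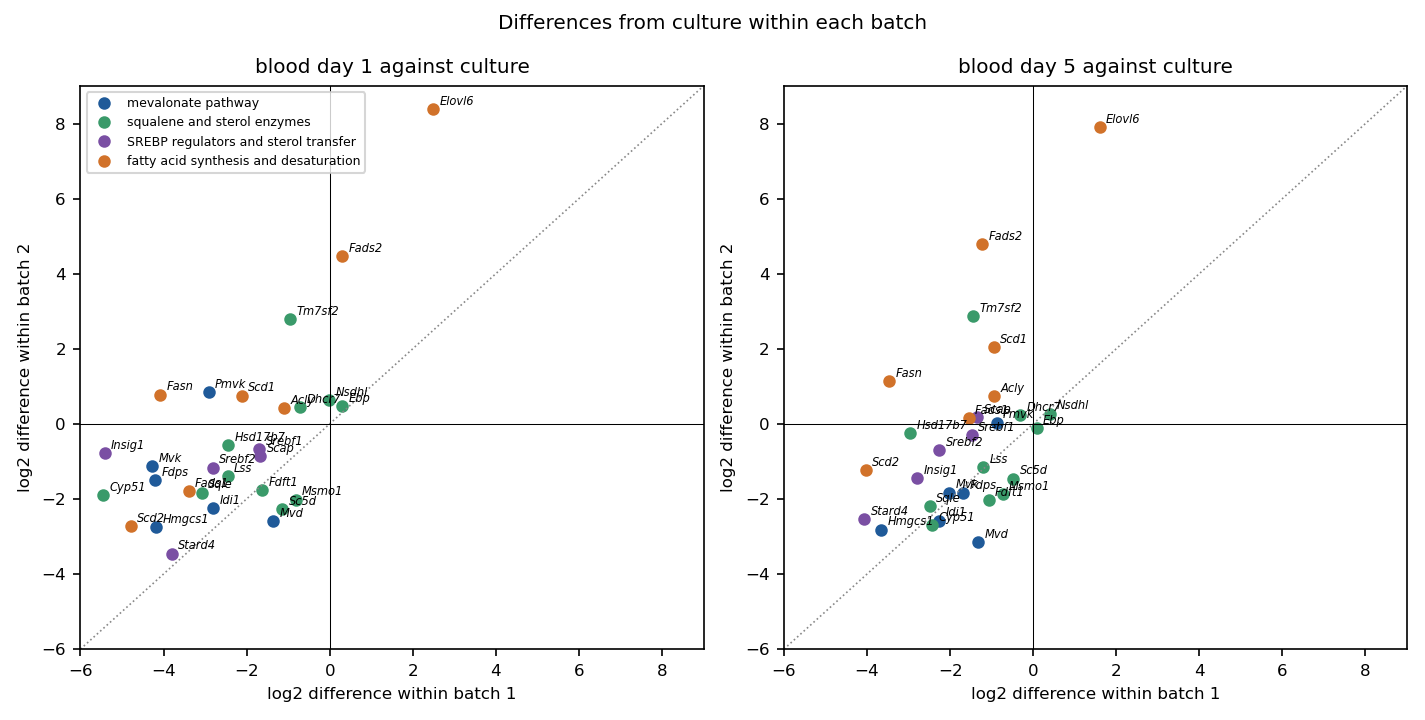
Log2 difference from culture within batch 2 against that within batch 1 for each gene, on day 1 (left) and day 5 (right) in blood, coloured by role, with the line of equality dotted. Sterol and mevalonate genes lie mostly in the lower left with both values below 0, and Fasn, Scd1 and Acly lie left of 0 in batch 1 and above 0 in batch 2.

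Among the genes around these routes, those of other synthesis steps rarely passed in blood. Of 20 other synthesis genes, which include the SREBP proteases and cofactor enzymes, 2 were higher and 1 lower in day 1 blood than in culture, and 2 and 2 on day 5 (limma, adjusted over all genes), where 18.1% of all genes were higher and 14.0% lower on day 1, and 19.6% and 11.4% on day 5. The median of that list was 0.05 on day 1 and 0.08 on day 5. The elongase gene Elovl7 rose from a mean of 26.1 to 1134 on day 1 and 600.0 on day 5 (log2 4.64 and 4.63, adjusted p = 3.27e-06 and 3.12e-06), with 4715 in day 1 replicate 2, the library with 4.90% platelet markers. Hsd17b12, of fatty acid elongation, was lower on day 1 (-1.32 ± 0.37, adjusted p = 0.00846), and Me1, which makes NADPH from malate, on day 5 (-2.34 ± 0.75, 0.0201). In brain 12 of the 20 were higher than in culture and 0 lower (37.5% and 11.7% of all genes), and 14 higher and 1 lower than in day 5 blood (33.6% and 14.3%), which became 6 and 3 in each with centring on the median gene. Me1 was at 903 in brain and 7.04 in day 5 blood, Fads3 at 1796 in brain and 3.77 in culture, and Acss2, which activates acetate, was lower in brain than in day 5 blood (1133 against 3147, adjusted p = 3.55e-06).

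Of 14 genes of sterol efflux, esterification and the sterol sensor LXR, 6 were higher and 4 lower than in culture on each blood day, against the same shares of all genes (18.1% and 14.0% on day 1, 19.6% and 11.4% on day 5). The 6 on both days were Abca1, Cyp27a1, Mylip, Nr1h2, Nr1h3 and Scarb1, and the 4 were Npc1, Npc2, Soat1 and Vldlr. Cyp27a1, a sterol 27-hydroxylase, rose from 23.1 to 542 on day 1 and 731 on day 5 (log2 5.39 and 5.70, adjusted p = 3.58e-06 and 1.57e-06). Vldlr, a lipoprotein receptor, fell by 4.03 and 6.13 (adjusted p = 0.0108 and 0.000254). In brain 7 of the 14 were higher than in culture (37.5% of all genes) and 11 higher than in day 5 blood (33.6%), with 0 lower in each, although 3 and 2 were lower with centring on the median gene. Ch25h, the cholesterol 25-hydroxylase, had 427 to 2142 in brain and at most 5.86 in any other library.

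Of 15 fatty acid oxidation genes 4 were higher and 2 lower on day 1 than in culture (18.1% and 14.0% of all genes), and 3 and 2 on day 5 (19.6% and 11.4%). Decr1, a reductase for unsaturated acyl-CoA, was the largest fall on both days (-1.25 and -1.63, adjusted p = 0.0169 and 0.00220). In brain 11 were higher than in culture (37.5% of all genes) and 10 higher than in day 5 blood (33.6%), with 0 lower in each, but 2 and 3 were higher with centring. Ppargc1a, a coactivator of oxidative genes, had 275 to 560 in brain, 0 to 406 in day 1 blood and 0 to 2.03 in culture. Ppara, a lipid-sensing receptor, averaged 75.8 in brain and 0.765 in day 5 blood.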

How the data were processed

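RNA was sequenced as 150 bp pairs from poly-A selected libraries. Per the submitters' processing notes, fastp trimmed the reads and HISAT2 2.0.5 aligned them to mm10. Which counter, annotation and strand setting were used is not given in the sources used here. From these reads the authors deposited a table of normalized counts (unit: signal), which are gene read counts divided by 1 size factor per library. Whole reads were recovered from its steps: 100% of values came out whole within 0.1 read, the largest deviation being 0.000988 read, and the size factors matched median-of-ratios factors over the 7556 genes without a zero. On these reads edgeR called 2991 genes higher and 1804 lower on day 1 in blood, the members among them being 1 and 19.

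The main test was limma 3.58.1 (R 4.3.3) on log2(normalized count + 1), a scale that understates the change of low genes, with group and batch as terms over all 23 libraries, trend and robust variance, and Benjamini-Hochberg adjustment over the 15268 genes that reached a normalized count of 10 in 5 or more libraries. All tests were two-sided at 0.05. Differences between batches were tested as an interaction. A planned permutation test of the summed shares was not run, since no p is given for a sum over chosen genes. TPM values use GENCODE M21 exon lengths (mm10), which also gave the gene coordinates. The code was tested on simulated data.

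The genes, the lists of related genes and markers, and the tests were chosen with earlier results of these data known. Each culture value, and the lowest, median and highest value of each group of 6, were given for 12 control points chosen by role (Acaca among them, not analysed here) and for the 2 called members with the largest rise and fall per comparison that moved the same way in either batch and averaged 100 or more in 1 of the groups compared. For each related list the called gene with the largest rise and fall was named. Other members were named after their values were seen. Alternatives were edgeR 4.0.16 and DESeq2 1.42.0 on the recovered reads, other scalings, filters and pseudocounts, single batches, no batch term, the replicate number as a block, library weights, averaged or left-out libraries and, chosen after seeing the data, centring on the median gene. Correlations of same-numbered deviations ran from -0.34 to 0.27. Libraries of a group also differ in depth and marker levels, so these correlations cannot decide whether equal replicate numbers mark paired libraries.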

Additional observations from a re-analysis of the deposited data

Results flagged for a closer look

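Among 68 sets of values (17 named genes in 4 groups), 11 had 1 library whose gap to the next exceeded Dixon's 95% limit. That limit is set for independent, normally distributed values. These sets pool batches and share libraries, so how many chance would give is not known. In culture, replicate 4 was low for Hmgcs1 (2690.8, against 6947 to 7357 in the others), Sqle (1152, against 2266 to 2410.1) and Fads1 (188, against 475 to 534). Culture replicate 5 was low for Srebf2 (2775, against 12395 to 12939). In blood on day 1, replicate 6 was high for Srebf2 (4400.0, against 1706 to 2516), Scap (1903, against 419 to 713), Acly (7275, against 3346 to 4502) and Fasn (2872, against 266 to 745), and replicate 2 was high for Fads2 (2777, against 120.4 to 225). In blood on day 5, Insig1 was high in replicate 5 (419, against 23.5 to 159 in the others). In brain, Mvd was high in replicate 2 (665, against 425 to 513). All values are normalized counts.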

How the results depend on the processing

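Counts of the 29 genes called moved as follows. In blood on day 1, 2 were higher in batch 2 alone and 2 with library quality weights, and 7 were lower in batch 2 alone and 10 with the closest libraries averaged. Over all genes tested 1791 and 5274 were higher and 886 and 1207 lower in those fits, against 2770 and 2135 in the main fit. In blood on day 5, 0 were higher in batch 1 alone and 3 in batch 2 alone, and 18 were lower by DESeq2, 5 in batch 2 alone, 23 with quality weights and 19 without 4 libraries (culture 5, blood day 1 2 and 6, brain 2). Over all genes tested 2576 and 2348 were higher in those fits, against 3000 in the main fit. Lower over all genes were 2343, 1099, 4500 and 2802, against 1748. Between the blood days quality weights called 1 higher, Scd1, where 201 of all genes tested were higher. Against culture, brain had 1 higher in batch 1 alone and 2 with centring on the median gene, and 3 lower in batch 2 alone, 16 with centring and 11 with quality weights. Over all genes tested 4633 were higher in batch 1 alone, and 1287 lower in batch 2 alone and 3054 with quality weights. Against day 5 blood, brain had 4 higher with centring and 16 without the 4 libraries, and lower calls numbered 4 with TMM scaling, 3 with equal totals, 6 with centring, 2 by edgeR, 3 with quality weights, and 1 each in batch 2 alone, with no batch term, in a fit of those 12 libraries only, and without the 4 libraries. Over all genes tested 6376 were higher without the 4 libraries. Lower over all genes, centring aside, were 3159, 2978, 2816, 2772, 1529, 2216, 2574 and 2876 in the same order. By edgeR 1 member differed between batches in brain against culture. Over all genes tested, centring turned the split of brain against culture from 5733 higher and 1780 lower to 4228 and 4904, and against day 5 blood from 5123 and 2183 to 3847 and 4684. The members' share in culture was 0.360% with 13 granzyme, hemoglobin and Ttr genes out of the total, against 0.285%.

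Fasn on day 1 reversed in batch 2 alone (0.78, adjusted p = 0.563), and Fads2 with quality weights was -0.98 (0.0350) on day 1 and -1.03 (0.0290) on day 5. The cause of these changes was not tested, also where fewer libraries were used. Leaving out 1 library at a time gave 1 to 1 higher and 15 to 20 lower on day 1, 1 to 1 and 9 to 12 on day 5, 3 to 4 and 5 to 7 in brain against culture, 9 to 10 and 0 to 1 in brain against day 5 blood, and 0 to 0 between blood days. Members differing between batches ranged from 2 to 7 on day 1, 2 to 7 on day 5 and 1 to 4 in brain.

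With the replicate number as a block, counts were 1 higher and 20 lower on day 1, 1 and 11 on day 5, 4 and 6 in brain against culture, 10 and 0 in brain against day 5 blood, and 0 and 0 between blood days. Of the alternatives planned, all were run. Depth limits low genes: Elovl6 had 0 reads in 2 culture libraries, so its fold rests on the pseudocount, and counting error is smallest in batch 2, which holds only 2 culture libraries. Blood day 1 replicate 2 had 0 reads for 5 members (Mvk, Fdps, Cyp51, Insig1 and Fads1), so their day 1 folds also depend on the pseudocount.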
